A study of Mus musculus with 20 samples.

Results

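NMuMG is an epithelial cell line from normal mouse mammary gland, and the study derived from it lines that overexpress Platr18, a long noncoding RNA. The labels name 2 of these lines, cl12 and cl16, here clone 12 and clone 16. The comparison between them was made over 14951 genes of the 54986 in the table, those with at least 1 CPM (reads of a gene per 1000000 reads of its library) in at least 2 of the 4 clone libraries. The 6 libraries used, of 20 in the series, came from NMuMG cultures with no TGFβ treatment or silencing named: 2 replicate libraries of clone 12 and 2 of clone 16, both overexpressing Platr18, and 2 of NMuMG with Empty vector. Empty vector served only to tell which clone departed from cells without the overexpressed RNA. Each clone is 1 line, and the sources used here give neither the promoter of the vector nor whether a line began from a single cell. Platr18 level and line therefore cannot be told apart. A gene is called different between 2 lines at an unadjusted p under 0.001 with a log2 difference of at least 1. The replicates are separate libraries by their labels, with no word on separate cultures, so p-values measure only spread between replicate libraries. That spread was estimated jointly over the 10 conditions of all 20 libraries, not from the 6 alone.

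Platr18, annotated as Lncenc1, belongs to the Platr RNAs, which were named for their association with the pluripotent state of embryonic stem cells. Semaphorins are guidance proteins that steer growing axons through plexin and neuropilin receptors, and Sema4f, a membrane-bound member, is the one the study examined beside Platr18. NMuMG cells are widely used to study the passage of epithelial cells to a mesenchymal state under TGFβ.

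Depth was alike in the 6 libraries, and all of them held epithelial markers. The values were scaled to between 65.2 and 73.0 M reads a library, so that 3 reads on a gene are worth 0.0411 to 0.0460 CPM, and replicates of a line correlated at r of at least 0.997 across the tested genes. Of 5 epithelial markers, Cdh1, Krt8, Krt18 and Krt19 were abundant and uncalled between the clones, while Epcam was listed at 0 in all 6 libraries. Their summed level was 3828 to 4421 CPM in clone 12 and 3639 to 3733 CPM in clone 16. Krt19 had the largest difference of these markers, 0.69 higher in clone 16 on the log2 scale. Summed markers of immune cells, endothelium, fat cells and neurons stayed under 0.38 CPM in every library. The 4 fibroblast markers summed to 0.267 to 0.368 CPM in clone 12 and 1.59 to 1.68 CPM in clone 16. In clone 16 nearly all of the sum was Pdgfra, with Col1a2 at 0 in both libraries. Dcn went the other way, at 0.119 and 0.153 CPM in clone 12 and 0.0277 and 0.014 in clone 16.

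Both clones held Platr18 far above Empty vector, and clone 12 held 3.79 times as much as clone 16. Platr18 (Lncenc1, chr13:97434970-97497007, plus strand, GRCm38) stood at 3092 and 3096 CPM in clone 12, 813 and 819.8 in clone 16 and 3.68 and 3.06 with Empty vector. The 4 clone libraries fell into 2 tight pairs, and no clone library came near the Empty vector level. The clones differed by 1.92 ± 0.09 (SE) on the log2 scale, lower in clone 16 (adjusted p = 1.03e-09, limma). Differences here are of log2(CPM + 1), which understates the change of genes under a few CPM. RP24-192J9.1, annotated as a processed pseudogene, overlaps Platr18 on the other strand. It stood at 8.01 and 8.30 CPM in clone 12, 8.45 and 8.85 in clone 16 and 7.36 and 8.65 with Empty vector. Its difference of 0.08 between the clones was not called. Without strand in the counting, reads of the pair cannot be told apart.

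Sema4f was ordered the other way. Sema4f (chr6:82911885-82939769, minus strand) measured 2.42 and 2.91 CPM in clone 12, 13.5 and 15.0 in clone 16 and 0.123 and 0.232 with Empty vector. Both clones lay above Empty vector, and the clone with less Platr18 had 5.33 times as much Sema4f (log2 difference 2.05 ± 0.11 (SE), adjusted p = 2.58e-09 by limma). Against Empty vector its log2 difference was 1.64 in clone 12 and 3.69 in clone 16.

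The study lists 10 axon-related genes as regulated on Platr18 overexpression, a list chosen on these same libraries, and 5 of them were called between the clones, against 5.01% of all tested genes. Higher in clone 16 were Sema4f, Myo5b, a motor protein of membrane recycling, and Robo1, a receptor of Slit guidance proteins. Lower in clone 16 were Kalrn, an exchange factor for small GTPases in dendritic spines, and Bmp7, a secreted growth factor. Myo5b stood at 0.104 and 0.046 CPM in clone 12, 5.10 and 6.51 in clone 16 and 15.3 and 13.9 with Empty vector. Robo1 stood at 2.84 and 2.33 CPM in clone 12, 7.14 and 7.50 in clone 16 and 15.2 and 13.6 with Empty vector. Both were lowest in clone 12 and highest with Empty vector, with clone 16 between. Kalrn measured 5.47 and 5.38 CPM in clone 12, 0.18 and 0.349 in clone 16 and 7.37 and 7.27 with Empty vector. Bmp7 measured 3.65 and 3.85 CPM in clone 12, 0.222 and 0.335 in clone 16 and 6.68 and 5.62 with Empty vector. Here clone 16 alone stood apart, and clone 12 differed from Empty vector by -0.37 for Kalrn and -0.59 for Bmp7, not called. The other 5 genes were not called between the clones, and of these Kif5c had a difference of 0.46, Etv4 of 0.20, Efnb1 of -0.02 and Fn1 of -0.07. Fn1 (fibronectin) was 1.11 above Empty vector in clone 12 and 1.05 in clone 16, both called, and Kif5c, a kinesin of axonal transport, lay -1.62 and -1.16 from Empty vector, also both called.

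**Figure D1:**
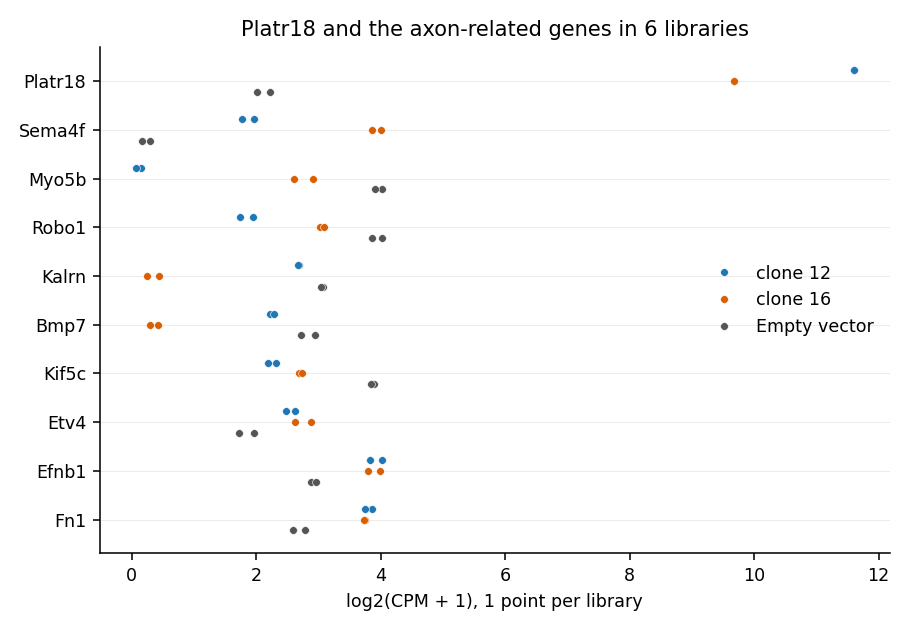
Levels of Platr18 and 9 of the axon-related genes as log2(CPM + 1), 1 point per library, in clone 12, clone 16 and Empty vector. Platr18 is highest in clone 12 and Sema4f highest in clone 16, Kalrn and Bmp7 are near 0 only in clone 16, and Myo5b is near 0 only in clone 12.

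Across all semaphorins, plexins and neuropilins, 20 were tested, 2 were higher in clone 16 and 3 lower, with a median of 0.11 beside 0.02 over all tested genes. Sema3b, a secreted semaphorin, was the second that was higher (3.51 and 4.77 CPM in clone 12 and 10.5 and 11.5 in clone 16). The lower ones were receptors. Plxnd1 had 13.5 and 15.8 CPM in clone 12 and 2.99 and 3.94 in clone 16. Nrp1, a co-receptor for class 3 semaphorins and VEGF, had 47.4 and 49.0 CPM in clone 12 and 20.97 and 22.1 in clone 16. Plxna4 had 1.32 and 1.73 CPM in clone 12 and 0.0416 and 0.0419 in clone 16, which is 3 reads in each clone 16 library. Of 19 other axon guidance and neurotrophic genes Robo1 alone was called. None of the 19 other tested genes within 1000000 bases of Platr18 was called, either between the clones or in a clone against Empty vector. Their differences between the clones ran from -0.77 to 0.65 with a median of 0.04. Enc1 departed most from Empty vector, by 0.88 in clone 12 (adjusted p = 2.44e-07, limma) and 0.47 in clone 16 (adjusted p = 0.000194). It was uncalled because both differences lay under the fold limit. Others lay below Empty vector in clone 12, such as Arhgef28 at -0.50. A relation of these genes to Platr18 level was not tested.

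Between the clones 749 genes were called, 462 higher in clone 16 (3.09% of those tested) and 287 lower (1.92%). The fold limit set this number, since all 749 genes with a difference of at least 1 also passed the p limit, and the largest adjusted p among them was 0.00197. Clone libraries did not overlap for any of the 749, which is true of 80.6% of all tested genes. Differences of at least 2 were found for 85 genes higher in clone 16 and 38 lower, and differences of at least 3 for 21 and 15. Protein-coding genes made up 681 of the 749.

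Clone 12 departed from Empty vector more often than clone 16 did. Clone 12 had 193 genes called higher and 377 lower than Empty vector (1.29% and 2.52%, together 3.81%), and clone 16 had 132 and 134 (0.883% and 0.896%, together 1.78%). The 2 counts share the Empty vector libraries. Genes that Empty vector expressed and both clones lacked were not tested, since the filter used the clone libraries only. Of the 749 genes called between the clones, Empty vector lay between the clone means for 571 and was nearer to clone 16 for 513 (68.5%). The same shares were not counted over all tested genes. Choosing genes by a large difference between the clones already favours a place between them. Clone 12 alone was called against Empty vector for 318 of the 749, 216 lower and 102 higher than Empty vector. For 121 clone 16 alone was called, 58 higher and 63 lower. Both clones were called in opposite directions for 20 entries and in the same direction for 13, and neither clone reached the limits for 277.

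**Figure D2:**
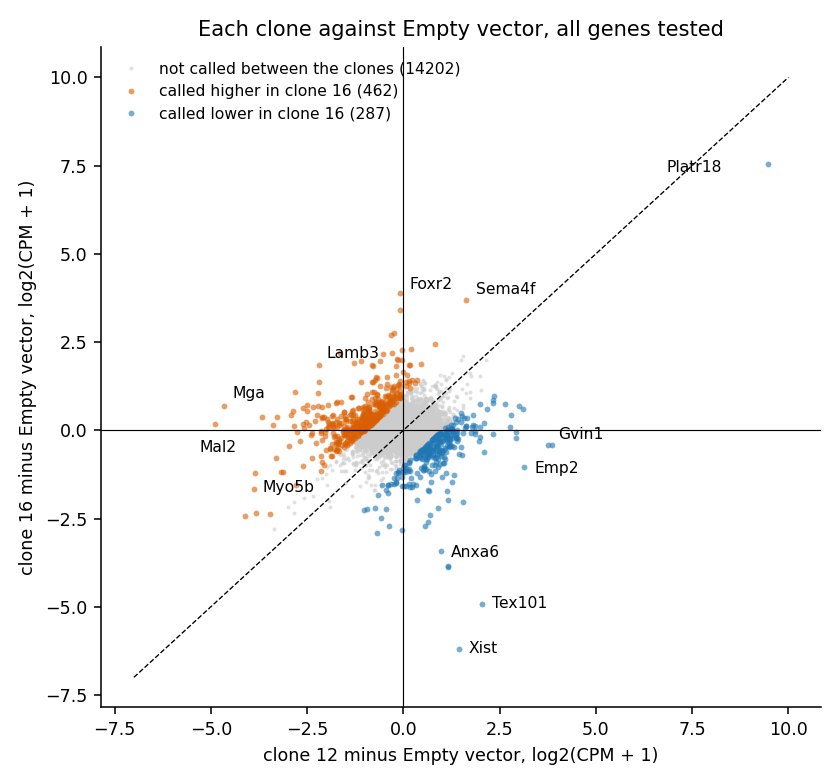
Difference of clone 12 (x axis) and of clone 16 (y axis) from Empty vector in log2(CPM + 1) for the 14951 genes tested, coloured by the call between the clones; the dashed line marks equal differences, and the axes share the Empty vector libraries. Genes higher in clone 16 spread mostly along the x axis, to the left, as Mga and Mal2 do, while Xist, Tex101 and Anxa6 lie low on the y axis.

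A set of genes was on in one clone and at the level of a few reads in the other. At or under 3 reads in both libraries of one clone and at least 1 CPM in both of the other were 29 genes missing from clone 12 and 25 missing from clone 16. All 54 were called, as genes chosen this way nearly must be. Levels in the clone that kept the gene reached 33.3 CPM for the genes missing from clone 12 and 17.5 CPM for those missing from clone 16. Empty vector had a mean of at least 1 CPM for 16 of the 29 and 11 of the 25, and was itself at or under 3 reads for 2 genes of each set. Genes of these sets are named here after their values were seen unless they are also among the 12 largest differences of a direction.

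The promoters of 4 genes called between the clones are shown as examples. They do not cover all patterns found among the 3 lines compared. Of these genes, Foxr2 alone belongs to the sets at the level of a few reads described above. Sema4f was low with Empty vector and graded between the clones. Of the 3 lines, Foxr2 was on in clone 16 alone, and Tex101 and Xist were high in all but clone 16. Each run is the 250 bases before the RefSeq start, GRCm38.p6, read 5′ to 3′ on the strand of the gene, with every CG in capitals, the dinucleotide that carries DNA methylation in mammals. At least 1 CG was found in 92.1% of the 32851 RefSeq promoters of this length, and the median was 6. Searching for CG gave 4 in Sema4f, 3 in Foxr2, 14 in Tex101 and 11 in Xist. For Tex101 the RefSeq start lies inside the gene as the count table annotates it (chr7:24668007-24676675), so the run does not adjoin the start in that annotation. Methylation was not measured in these libraries.
Sema4f, chr6:82939770-82940019, minus strand: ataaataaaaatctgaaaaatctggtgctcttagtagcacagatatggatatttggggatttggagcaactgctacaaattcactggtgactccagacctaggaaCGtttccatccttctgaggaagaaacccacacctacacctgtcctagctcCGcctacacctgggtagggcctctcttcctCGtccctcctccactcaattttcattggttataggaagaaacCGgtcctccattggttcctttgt
Foxr2, chrX:153118538-153118787, plus strand: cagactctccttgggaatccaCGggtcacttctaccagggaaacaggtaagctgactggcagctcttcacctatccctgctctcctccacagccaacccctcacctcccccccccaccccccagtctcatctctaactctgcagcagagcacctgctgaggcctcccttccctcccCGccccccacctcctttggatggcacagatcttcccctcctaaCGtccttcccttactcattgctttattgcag
Tex101, chr7:24672051-24672300, minus strand: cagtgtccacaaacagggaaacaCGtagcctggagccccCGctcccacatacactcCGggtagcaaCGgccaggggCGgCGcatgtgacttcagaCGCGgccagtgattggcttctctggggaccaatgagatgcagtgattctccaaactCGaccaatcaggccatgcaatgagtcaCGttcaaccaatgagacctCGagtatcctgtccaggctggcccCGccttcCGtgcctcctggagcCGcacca
Xist, chrX:103483234-103483483, minus strand: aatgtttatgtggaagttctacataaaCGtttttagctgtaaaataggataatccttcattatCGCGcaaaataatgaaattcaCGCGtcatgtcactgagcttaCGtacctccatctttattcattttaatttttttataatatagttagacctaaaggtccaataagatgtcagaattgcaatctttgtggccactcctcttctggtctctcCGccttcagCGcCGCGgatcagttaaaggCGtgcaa

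The 12 largest differences higher in clone 16 were mostly genes over 1 CPM with Empty vector and under 1 CPM in clone 12. Mga, a MAX-binding repressor that keeps germline genes off, was at 0.0149 and 0.0614 CPM in clone 12, 41.3 and 40.4 in clone 16 and 24.4 and 25.9 with Empty vector (log2 difference 5.33 ± 0.08 (SE), adjusted p = 4.3e-15 by limma). Mal2, a protein of vesicle traffic to the apical membrane, was at 0 and 0.046 CPM in clone 12, 33.9 and 32.6 in clone 16 and 30.1 and 29.0 with Empty vector. Maged2, an X-linked MAGE family gene, was at 0 and 0.0153 CPM in clone 12, 15.6 and 15.9 in clone 16 and 11.8 and 11.9 with Empty vector. In these 3 genes clone 12 held at most 4 reads in a library while clone 16 lay above Empty vector. Relative to the value of 3 reads, Mal2 was at least 735-fold and Maged2 at least 347-fold higher in clone 16. Pter (at least 264-fold), Trpa1, an ion channel of irritant sensing (23.8-fold), and Mgat4a, which branches N-glycans (23.4-fold), had the same order. Clone 12 still held Trpa1 at 0.758 and 0.675 CPM and Mgat4a at 0.921 and 0.920 CPM. Foxr2 and Nt5e were hardly expressed by Empty vector. Foxr2, a forkhead factor, measured 0 and 0.0153 CPM in clone 12, 15.4 and 14.7 in clone 16 and 0.0685 and 0.0869 with Empty vector. Nt5e, the ectonucleotidase CD73, measured 0.0743 and 0.092 CPM in clone 12, 10.8 and 11.6 in clone 16 and 0.137 and 0.159 with Empty vector. Among the 3 lines compared, these 2 genes were on in clone 16 alone. Elsewhere in the series Foxr2 was called lower in NMuMG silenced for hnRNP E1 than in NMuMG without vector (-1.11), so NMuMG also expressed it. Nt5e was called higher in NMuMG under TGFβ (2.59). Lamb3, Morc4, Vldlr and RP23-407H16.1 were the rest of the 12, and in them Empty vector lay between the clones, with Lamb3 and RP23-407H16.1 over 1 CPM in clone 12 as well.

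Lamb3, the β3 chain of laminin-332 in the epithelial basement membrane, was the most abundant of them, at 7.92 and 10.0 CPM in clone 12, 150.5 and 174 in clone 16 and 42.3 and 46.9 with Empty vector (log2 difference 4.04 ± 0.20 (SE), adjusted p = 1.54e-09 by limma). It overlaps Hsd11b1 on the other strand, and strand use in counting is not given in the sources used here. Vldlr, a lipoprotein and reelin receptor, was at 0.0743 and 0.0767 CPM in clone 12, 11.9 and 11.6 in clone 16 and 3.78 and 4.08 with Empty vector. Morc4, an X-linked chromatin ATPase, was at 0.0446 and 0.0614 CPM in clone 12, 13.6 and 14.4 in clone 16 and 2.21 and 2.42 with Empty vector. In all 3 genes each clone stood on its own side of Empty vector.

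Of the 12 largest differences lower in clone 16, Xist and Tex101 were the extremes. Xist, the noncoding RNA that coats and silences an X chromosome in female cells, was at 237 and 209.9 CPM in clone 12, 0.0554 and 0.182 in clone 16 and 89.6 and 74.2 with Empty vector (log2 difference -7.65 ± 0.09 (SE), adjusted p = 2.69e-16 by limma). Tex101, a surface protein known from germ cells, was at 159 and 163 CPM in clone 12, 0.333 and 0.251 in clone 16 and 38.1 and 38.3 with Empty vector (log2 difference -6.97 ± 0.06 (SE), adjusted p = 2.37e-17 by limma). Both were highest in clone 12, intermediate with Empty vector and all but missing from clone 16. Rhox5, an X-linked homeobox gene of reproductive tissue, appears as 2 entries, on X and on a patch sequence, whose reads cannot be separated. The X entry measured 181 and 186 CPM in clone 12, 4.68 and 4.65 in clone 16 and 78.5 and 83.4 with Empty vector, the same order. Over the 624 X-linked genes tested the median difference between the clones was 0.03, with 23 genes higher and 15 lower in clone 16, and the median difference from Empty vector was 0.10 in clone 12 and 0.08 in clone 16. Blocks of the X chromosome differed in opposite directions. Of all windows of 10 Mb with at least 20 tested genes, the lowest and the highest median between the clones were both on X, -0.58 at 120 to 130 Mb over 21 genes and 0.42 at 140 to 150 Mb over 43 genes. The windows at 130, 150 and 160 Mb had medians of 0.24, 0.24 and 0.37. In the 4 windows from 130 Mb on, clone 16 was 0.31 to 0.56 above Empty vector in the median, while in the window at 120 Mb clone 12 was 0.50 above it. These medians were not tested.

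Clone 16 alone was called against Empty vector for Anxa6, Poglut1 and Thsd4, and was lower. For Anxa6 clone 12 was 0.98 above Empty vector on the log2 scale, just under the limit of 1. Anxa6, a calcium-dependent membrane-binding annexin, measured 20.9 and 21.9 CPM in clone 12, 0.0554 and 0.0698 in clone 16 and 10.1 and 10.6 with Empty vector (log2 difference -4.40 ± 0.11 (SE), adjusted p = 1.23e-12 by limma). Poglut1, which adds O-glucose to Notch, measured 9.51 and 8.83 CPM in clone 12, 0.0693 and 0.0279 in clone 16 and 5.88 and 5.82 with Empty vector. Sirt1, a NAD-dependent deacetylase, measured 11.8 and 12.2 CPM in clone 12, 0.0554 and 0.0838 in clone 16 and 3.22 and 3.61 with Empty vector and was lower than Empty vector in clone 16 and higher in clone 12. All 3 were at 6 reads or fewer in each clone 16 library. Others of the 12 were highest in clone 12 and far lower in both other lines. Gvin1, an interferon-inducible GTPase of a family with near-identical copies, measured 17.7 and 17.3 CPM in clone 12, 0.0277 and 0.014 in clone 16 and 0.356 and 0.362 with Empty vector. RP23-454A11.1 measured 19.5 and 19.1 CPM in clone 12, 0.0831 and 0.0279 in clone 16 and 0.452 and 0.348 with Empty vector, an order like that of Gvin1. Emp2, a tetraspan membrane protein, measured 28.8 and 30.2 CPM in clone 12, 0.693 and 0.684 in clone 16 and 2.36 and 2.55 with Empty vector, so that clone 12 was 42.9 times clone 16. Ly6a, the surface antigen Sca-1, completed the 12.

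**Figure D3:**
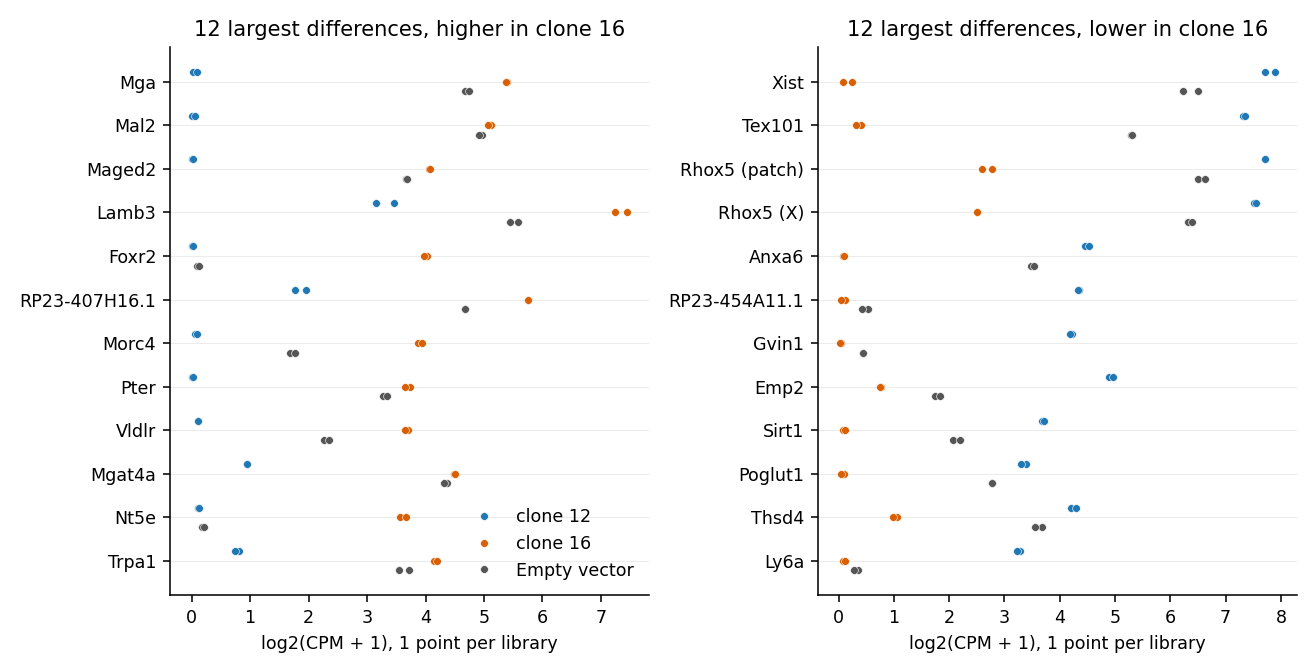
Levels as log2(CPM + 1), 1 point per library, for the 12 genes with the largest differences in each direction (left, higher in clone 16; right, lower). Clone 12 sits at the left edge for most genes of the left panel and clone 16 for most genes of the right panel, while Empty vector is usually on the side of the clone that kept the gene.

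The smallest p-values picked out largely these genes. For the higher direction they were Mal2, Foxr2, Mga, Ptgs2os2 and Morc4, and for the lower direction Tex101, Xist, Gvin1, Emp2 and Ostn. Ptgs2os2, annotated as a long intergenic noncoding RNA, measured 0.0297 and 0 CPM in clone 12, 8.28 and 8.57 in clone 16 and 4.78 and 4.72 with Empty vector. Ostn, a secreted peptide of muscle and bone, measured 3.08 and 2.98 CPM in clone 12, 0.097 and 0.0698 in clone 16 and 0.123 and 0.0869 with Empty vector. Ptgs2os2 was at 2 reads or fewer in clone 12 alone, and Ostn was at or over 1 CPM in clone 12 alone.

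For 20 entries both clones were called against Empty vector in opposite directions, all named here after their values were seen. Higher in clone 16 and lower in clone 12 were Lamb3, RP23-407H16.1, Morc4, Vldlr, Crtap, Lmcd1, Map2 and Mtus1. Crtap, which works in collagen prolyl 3-hydroxylation, measured 0 and 0 CPM in clone 12, 8.70 and 8.62 in clone 16 and 3.86 and 3.42 with Empty vector. Map2, a microtubule protein of dendrites, measured 0.579 and 0.583 CPM in clone 12, 12.7 and 11.5 in clone 16 and 2.19 and 2.56 with Empty vector. Lmcd1 measured 0.55 and 0.736 CPM in clone 12, 12.7 and 14.9 in clone 16 and 3.07 and 2.90 with Empty vector. In each, Empty vector lay between clones that did not overlap it. The reverse held for Xist, Tex101, the 2 Rhox5 entries, Emp2, Sirt1, Ncs1, Smarca1, Trip6, Zcwpw1, Thbs1 and Mme. Thbs1, the matrix protein thrombospondin 1, measured 217 and 222 CPM in clone 12, 41.8 and 43.2 in clone 16 and 111 and 105 with Empty vector. Ncs1, a neuronal calcium sensor, measured 7.04 and 8.57 CPM in clone 12, 0.0139 and 0.014 in clone 16 and 3.12 and 2.80 with Empty vector, which is 1 read in each clone 16 library. Smarca1, an X-linked chromatin remodeler, measured 8.10 and 7.52 CPM in clone 12, 0.166 and 0.279 in clone 16 and 2.75 and 3.27 with Empty vector. All 3 were highest in clone 12.

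A further 13 called genes differed from Empty vector the same way in both clones but by different amounts. Platr18 and Sema4f were the 2 above Empty vector in both. The other 11 were below it in both: Myo5b, Ppp1r9a, Ttr, Serpina1a, Serpina1b, Serpina1c, Ugt2b36, Ms4a4b, Cyp2c68, Sult1d1 and Klhdc7a, named after their values were seen. Several of these are known from liver, among them Ttr, which carries thyroxine, and the Serpina1 genes, which encode antitrypsin and share near-identical copies. Serpina1b measured 0.297 and 0.276 CPM in clone 12, 3.19 and 3.11 in clone 16 and 23.7 and 19.5 with Empty vector. Klhdc7a measured 0.386 and 0.368 CPM in clone 12, 5.50 and 5.25 in clone 16 and 19.3 and 19.001 with Empty vector. Ppp1r9a, an actin-binding protein of neurites, measured 3.12 and 3.604 CPM in clone 12, 0.859 and 0.852 in clone 16 and 8.23 and 7.62 with Empty vector. Of the 11, Ppp1r9a alone was lower in clone 16 than in clone 12.

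Lists of pathways, families and mammary cell states are given by how many members were called and by their median difference, beside 5.01% called and a median of 0.02 for all tested genes, of which 51.8% had a positive difference. No list was tested as a set.

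Epithelial junction and polarity genes were called in 1 direction. Of 19 tested, 7 were called, all higher, 17 had a positive difference, and the median was 0.72. Against Empty vector the median of the list was -0.57 in clone 12 and 0.01 in clone 16. Ocln, occludin of tight junctions, was at 8.497 and 7.29 CPM in clone 12, 19.6 and 20.2 in clone 16 and 23.5 and 22.3 with Empty vector. Cxadr, a junctional adhesion receptor, was at 85.6 and 84.2 CPM in clone 12, 177 and 175 in clone 16 and 166 and 162 with Empty vector. Cldn12, a claudin, was at 47.6 and 46.8 CPM in clone 12, 103 and 101 in clone 16 and 95.8 and 94.3 with Empty vector. In these 3 genes clone 12 was the lowest line, called against Empty vector for Ocln only. Cxadr overlaps Btg3 on the other strand. Jup, plakoglobin of desmosomes, had a difference of 1.04, and Pkp3, another desmosomal gene, of 1.13. Cdh1, E-cadherin, had one of -0.07 and was not called. Of 8 EMT transcription factors tested 1 was called, Snai2 (Slug), at 3.001 and 2.91 CPM in clone 12, 0.734 and 0.852 in clone 16 and 0.699 and 0.536 with Empty vector. Snai2 was thus higher in clone 12 than in clone 16 or Empty vector. Among 13 mesenchymal genes S100a4 was lower in clone 16 (481 and 482 CPM in clone 12, 164 and 158 in clone 16) and 3 were higher, Ncam1 and Pdgfra among them, with a median of 0.04. None of 7 keratins or 7 epithelial identity regulators was called.

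Basement membrane and matrix genes were the next group with most calls in one direction. Among 20 laminins and integrins 5 were higher in clone 16 and 1 lower (median 0.46). Itgb6, the epithelial integrin β6, was at 17.2 and 14.9 CPM in clone 12, 48.7 and 45.8 in clone 16 and 44.0 and 47.3 with Empty vector, and its partner Itgav had a difference of 1.26. The one lower was Itgb7, a leukocyte integrin chain, at 45.8 and 49.5 CPM in clone 12, 6.98 and 8.21 in clone 16 and 4.81 and 4.56 with Empty vector. Itgb7 was raised in clone 12 above both other lines. Of 9 collagens 3 were called, all higher (median 0.70). Col6a1 was at 6.09 and 6.23 CPM in clone 12, 30.6 and 32.2 in clone 16 and 6.397 and 7.68 with Empty vector. Col6a2 followed it, at 0.564 and 0.307 CPM in clone 12, 4.97 and 5.61 in clone 16 and 0.644 and 0.536 with Empty vector. Both collagen VI chains were raised in clone 16 alone, where the fibroblast marker Pdgfra was also higher (1.40 and 1.52 CPM against 0.0297 and 0.0614 in clone 12). Other fibroblast markers stayed under 0.2 CPM, and a part of these cells in the result was not tested. Of 30 proteases and inhibitors 7 were higher and 2 lower. Serpinb5 (maspin), an epithelial serpin, was at 0.134 and 0.107 CPM in clone 12, 7.74 and 8.31 in clone 16 and 0.356 and 0.449 with Empty vector, and Serpinb9b, an inhibitor of granzymes, was at 58.4 and 58.1 CPM in clone 12, 11.1 and 10.4 in clone 16 and 5.95 and 6.85 with Empty vector. These 2 serpins were each raised in one clone, Serpinb5 in clone 16 and Serpinb9b in clone 12. Cdh16, a kidney-type cadherin, was at 30.9 and 31.5 CPM in clone 12, 185 and 179 in clone 16 and 106 and 106 with Empty vector and led the cadherins and protocadherins, of which 4 of 14 were higher and 1 lower.

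Among 27 genes of glycolysis and the hypoxia response 8 were called, and 6 were higher in clone 16 and 2 lower (median 0.57). Pdk1, which holds pyruvate back from mitochondria, was at 22.97 and 24.004 CPM in clone 12, 96.9 and 97.7 in clone 16 and 96.8 and 103 with Empty vector. Bnip3, a mitophagy receptor, was at 5.36 and 4.46 CPM in clone 12, 33.7 and 33.2 in clone 16 and 25.4 and 30.5 with Empty vector. Aldoc, an aldolase, was at 2.53 and 2.47 CPM in clone 12, 12.3 and 11.9 in clone 16 and 15.4 and 16.2 with Empty vector. Clone 12 was the low line for these 3. Car12, a membrane carbonic anhydrase, was instead raised in clone 16 (0.327 and 0.245 CPM in clone 12, 7.18 and 7.53 in clone 16 and 0.918 and 0.811 with Empty vector). Vegfa, the angiogenic factor, went the other way, at 112 and 119 CPM in clone 12, 34.2 and 34.9 in clone 16 and 63.8 and 59.5 with Empty vector, with neither clone called against Empty vector. Of 24 cholesterol genes 1 was called, Hsd17b7, with a list median of 0.55 and a positive difference for 22, and Hsd17b7 was at 19.3 and 18.3 CPM in clone 12, 48.8 and 50.4 in clone 16 and 23.4 and 23.1 with Empty vector. Of 19 genes of fatty acid synthesis and storage 3 were higher and 1 lower. Scd2, a fatty acid desaturase, was at 339 and 328 CPM in clone 12, 939 and 969 in clone 16 and 1042 and 933 with Empty vector, and Scd1 differed by 1.46. Fabp5, a fatty acid carrier, was at 43.5 and 47.1 CPM in clone 12, 19.01 and 19.5 in clone 16 and 42.6 and 44.5 with Empty vector and was the lower one, with clone 16 alone apart.

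Stress and detoxification genes were split. Of 27 genes of the amino acid response 2 were higher in clone 16 and 4 lower, with a median of -0.56. Ddit3 (CHOP) was at 45.2 and 49.97 CPM in clone 12, 17.5 and 17.7 in clone 16 and 19.5 and 19.4 with Empty vector. Cth, of cysteine synthesis, was at 39.6 and 42.8 CPM in clone 12, 12.4 and 12.1 in clone 16 and 17.1 and 17.1 with Empty vector. Ddit3 overlaps Mars, and Atf5 overlaps Nup62, on the other strand. Atf5 differed by -1.28 and Shmt2 by -1.10. The 2 higher ones were Vldlr and Stc2, a secreted glycoprotein, which was at 0 and 0 CPM in clone 12, 5.06 and 4.97 in clone 16 and 4.59 and 4.29 with Empty vector. Of 45 genes of glutathione and detoxification 7 were higher and 5 lower (median -0.16). Mgst1, a membrane glutathione transferase, was at 2.38 and 2.39 CPM in clone 12, 26.0 and 24.6 in clone 16 and 24.5 and 22.1 with Empty vector. Cbr1, a carbonyl reductase, was at 0.0446 and 0.092 CPM in clone 12, 3.46 and 3.38 in clone 16 and 3.36 and 2.97 with Empty vector. Gsta1, a soluble glutathione transferase with close paralogs, was at 4.03 and 3.30 CPM in clone 12, 0.152 and 0.223 in clone 16 and 1.12 and 1.38 with Empty vector. The first 2 were called lower and the third higher in clone 12 than with Empty vector, and clone 16 was not called for any of the 3. Ugt1a7c and Ugt1a8 differed by -1.62 and -1.58, but they share exons with each other and with other Ugt1a genes.

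Surface antigens, interferon-stimulated genes and cytokines included some of the sharpest contrasts. All 3 Ly6 genes tested were lower in clone 16. Ly6a was at 8.73 and 8.34 CPM in clone 12, 0.0554 and 0.0838 in clone 16 and 0.274 and 0.217 with Empty vector. Ly6c1 was at 7.09 and 7.30 CPM in clone 12, 0.0416 and 0.0698 in clone 16 and 0.0822 and 0.0869 with Empty vector. Ly6c2, a near copy of Ly6c1, was at 1.69 and 1.33 CPM in clone 12, 0 and 0.0279 in clone 16 and 0.0137 and 0.029 with Empty vector. Each of the 3 was over 1 CPM in clone 12 and under 0.3 CPM in both other lines. They are neighbours on chromosome 15 and related in sequence. Of 22 interferon-stimulated genes 4 were higher in clone 16 and 2 lower (median 0.51). Ifit3 and its near copy Ifit3b were 1.43 and 1.89 higher, Herc6 1.37 and Samd9l 1.10, and of these Ifit3, Ifit3b and Herc6 were called lower in clone 12 than with Empty vector. The 2 lower ones were Gvin1 and Oasl1, an antiviral protein. Oasl1 measured 3.77 and 4.57 CPM in clone 12, 0.429 and 0.335 in clone 16 and 3.07 and 3.08 with Empty vector, low in clone 16 alone. None of 11 MHC class I and antigen presentation genes was called. Of 32 chemokines, cytokines and receptors 4 were higher and 3 lower. Ccl2, a monocyte chemokine, was at 55.2 and 54.2 CPM in clone 12, 153 and 155 in clone 16 and 49.0 and 53.1 with Empty vector. Csf1, the macrophage growth factor, was at 133 and 125 CPM in clone 12, 35.8 and 37.5 in clone 16 and 52.96 and 48.8 with Empty vector. Il33, an epithelial alarmin, was at 69.6 and 68.4 CPM in clone 12, 171 and 176 in clone 16 and 156 and 175 with Empty vector. Ccl2 was raised in clone 16, Csf1 was raised in clone 12 and Il33 was low in clone 12.

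Genes of the TGFβ and BMP pathway were called for 8 of 35, 5 higher in clone 16 and 3 lower (median 0.19). Inhbb, an activin subunit, measured 0 and 0 CPM in clone 12, 6.65 and 6.30 in clone 16 and 3.37 and 3.92 with Empty vector. Lefty1, a Nodal antagonist, measured 1.04 and 1.10 CPM in clone 12, 8.91 and 9.31 in clone 16 and 4.12 and 4.42 with Empty vector. Tgfbr3, the co-receptor betaglycan, measured 2.56 and 2.78 CPM in clone 12, 13.1 and 12.6 in clone 16 and 13.1 and 11.2 with Empty vector. Clone 12 was the low line in all 3, with no read of Inhbb in either library. Pmepa1, a feedback inhibitor of Smad signaling, differed by 1.51 and Id3, a target of BMP signaling, by -1.60. Wnt pathway genes were called for 3 of 15. Fzd1, a Wnt receptor, measured 0 and 0 CPM in clone 12, 1.41 and 1.80 in clone 16 and 0.534 and 0.406 with Empty vector. Fzd6, another receptor, listed on a patch sequence, had a difference of -1.67, and Wnt7b, a ligand, one of 1.07. Of 25 genes of FGF, PDGF, MET and VEGF signals 4 were higher and 3 lower. Fgf1 measured 1.5004 and 1.58 CPM in clone 12, 13.8 and 13.5 in clone 16 and 24.4 and 24.01 with Empty vector, and Fgfbp1, which releases bound FGF, measured 6.24 and 6.92 CPM in clone 12, 1.29 and 1.19 in clone 16 and 8.82 and 10.1 with Empty vector. Fgf1 was lowest in clone 12 and Fgfbp1 lowest in clone 16. Myc was 53.6 and 56.05 CPM in clone 12 and 25.6 and 27.4 in clone 16, the 1 called of 16 AP-1 and immediate early genes. The secreted phosphoprotein Spp1 (osteopontin) was abundant and higher in clone 12, at 1707 and 1742 CPM in clone 12, 863 and 827 in clone 16 and 569 and 647 with Empty vector. With Areg, an EGF receptor ligand (-1.04), it was called among 12 luminal genes.

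Growth and housekeeping lists held few calls. None of 39 cell cycle entries was called (median 0.02, range -0.55 to 0.67), nor any of 83 subunits of oxidative phosphorylation (median 0.00). Of 77 cytosolic ribosomal proteins Rps24 alone was called (-1.02), with a list median of -0.24. Of 18 mitochondrially encoded genes mt-Rnr1, a ribosomal RNA, was called, at 1974 and 1767 CPM in clone 12, 5192 and 4654 in clone 16 and 5043 and 4955 with Empty vector. The other mitochondrial ribosomal RNA, mt-Rnr2, took 130699 to 165149 CPM of the 6 libraries, and differed by 0.12 between the clones, not called. Of 4 pluripotency factors tested 1 was called, Dppa2, at 0.297 and 0.276 CPM in clone 12, 2.45 and 2.53 in clone 16 and 0.329 and 0.521 with Empty vector. Of 3 Platr genes tested Platr18 was the one called.

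One call each came from 23 CDK inhibitors and p53 targets (Fas, 1.05), 11 Notch pathway genes (Hes6, 1.68), 11 insulin and IGF genes (Igfbp7, 1.18, which overlaps Polr2b), 4 Sox factors (Sox6, 1.81), 3 Hox genes (Hoxb13, 1.02), 11 imprinted genes (Phlda2, -1.26), 9 S100 proteins (S100a4, -1.57) and 5 acute phase and complement genes (Lbp, 1.38). Among 21 YAP/TAZ targets Nt5e and Fjx1 (1.47) were called. Snai2 was the 1 called of 9 basal genes and Areg the 1 of 12 genes of the EGF receptor family.

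**Figure D4:**
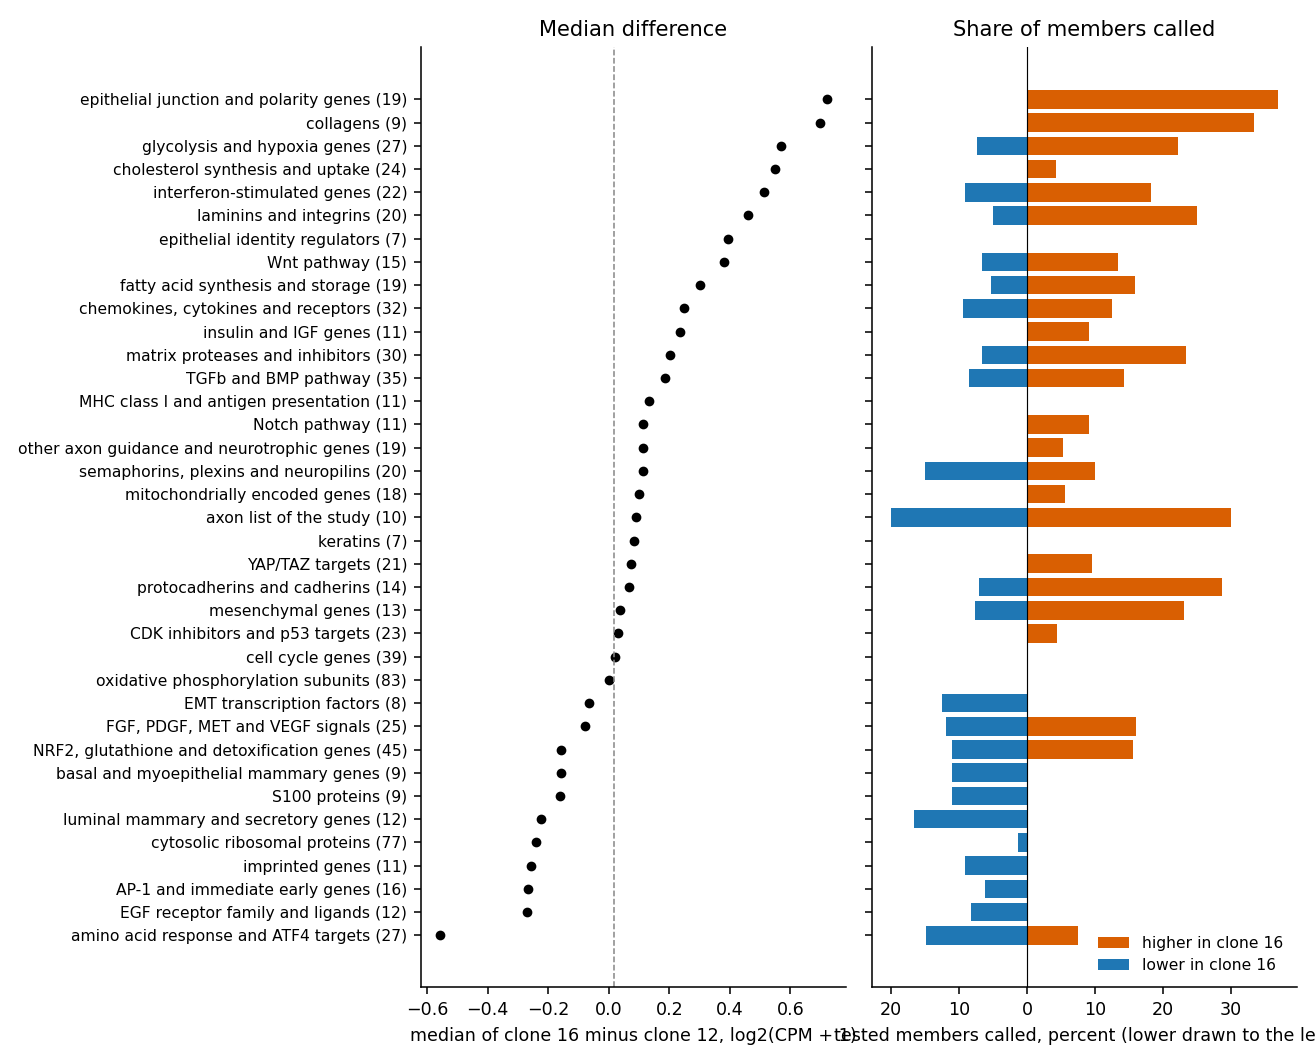
Left, median difference of clone 16 minus clone 12 in log2(CPM + 1) for each list with at least 7 tested members (number in parentheses), with a dashed line at the median of all tested genes, 0.02; right, percent of tested members called higher (orange) or lower (blue, to the left) in clone 16. Epithelial junction genes and collagens top the plot with calls in 1 direction, and the amino acid response list has the lowest median, -0.56.

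Chromosomes differed in the median of their genes. Medians over the genes of a chromosome ran from -0.23 (chromosome 17) to 0.32 (chromosome 19). Chromosome 19 had 44 genes called higher in clone 16 and 5 lower of 469, 10.4% of its genes, and 79.1% of its genes had a positive difference. On chromosome 1 the median was 0.26 with 61 genes higher and 9 lower. Both chromosomes were below Empty vector in clone 12 (-0.15 and -0.17) and above it in clone 16 (0.17 and 0.10). The 0.10 of chromosome 1 was not particular to it, since chromosomes 8 and 4 had 0.11 and 0.09 in clone 16. Scaling also moves such medians: under median-of-ratios scaling the median between the clones over all tested genes went from 0.02 to -0.05. Chromosomes 15 and 10 were the reverse, with medians of -0.22 and -0.20, and there clone 12 was above Empty vector (0.25 and 0.21) while clone 16 was within 0.03 of it. On chromosome 15, which holds the Ly6 genes and Itgb7, 6 genes were higher and 30 lower in clone 16. Chromosomes 17 and 3 (-0.16) were low in clone 16 against Empty vector (-0.24 and -0.20) and near it in clone 12 (0.03 and 0.02). Chromosomes 2 and 5 were below Empty vector in both clones. In windows of 10 Mb with at least 20 tested genes, 18 of 246 had a median over 0.3 and 11 one under -0.3. These medians lie well under the limit for a call and are given without a test.

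**Figure D5:**
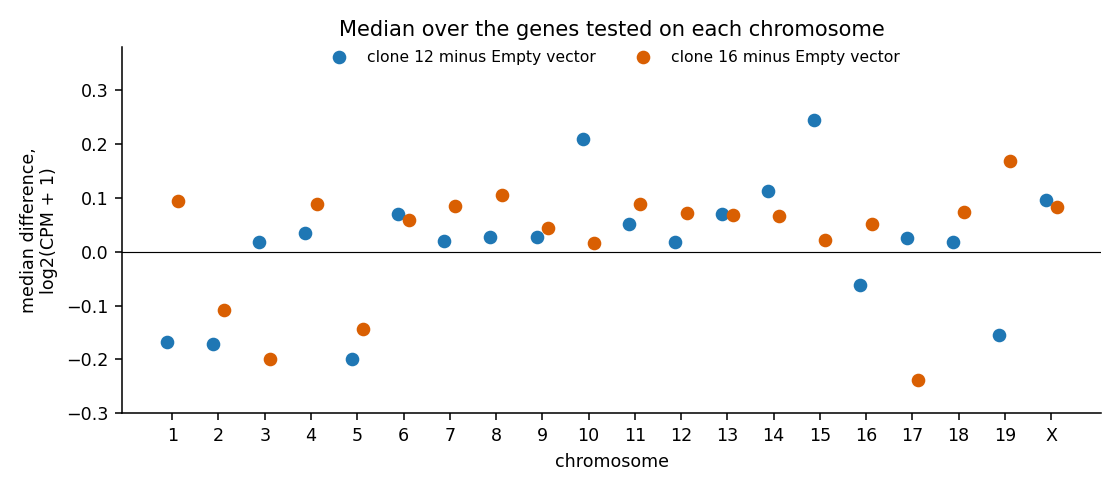
Median difference from Empty vector in log2(CPM + 1) over the genes tested on each chromosome, for clone 12 and clone 16; both share the Empty vector libraries. Clone 12 is high on chromosomes 10 and 15 and low on 1, 2, 5 and 19, and clone 16 is low on 2, 3, 5 and 17.

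The genes called between the clones were looked up in 3 comparisons of the series that use none of these 6 libraries. Libraries of E1KD, NMuMG and NMuMG with TGFβ differed in RNA make-up from the 6. The RNA mt-Rnr2 took 369 to 437 CPM in them, against 130699 to 165149 CPM in the 6. In the libraries with the Platr18 or scrambled shRNA it took 113874 to 155556 CPM. E1KD is NMuMG silenced for hnRNP E1 (Pcbp1). Of the 462 genes higher in clone 16, 54 were higher and 110 lower in E1KD than in NMuMG (11.7% and 23.8%), and of the 287 lower in clone 16, 78 were higher and 23 lower (27.2% and 8.01%), beside 4.86% and 3.06% of all tested genes. Genes lower in clone 16 were thus more often high than low in E1KD, and genes higher in clone 16 more often low than high. Agreement between replicates was lowest in E1KD, with r = 0.985 across tested genes against at least 0.997 in the other conditions. Without E1KD replicate 1 the counts were 43 higher and 126 lower for the first set and 60 and 25 for the second, beside 2.70% and 4.05% of all tested genes, and without E1KD replicate 2 they were 66 and 91, and 95 and 20, beside 14.5% and 2.61%. The order between the sets was the same under both. Under TGFβ the 2 sets were alike: 15.6% higher and 18.6% lower for the first, 13.2% and 19.5% for the second, beside 5.3% and 8.12%. When Platr18 was silenced in E1KD cells with an shRNA and compared with a scrambled shRNA (SCR), 17 of the 462 were higher and 24 lower, and 3 of the 287 were higher and 33 lower, beside 0.415% and 0.843% of all tested genes. These overlaps are counts and were not tested.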

How the data were processed

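Total RNA from cultured NMuMG lines and tumor-derived cells was sequenced in 20 libraries, 6 of which carry the comparison. The authors assigned reads to genes of mouse annotation M18 with the Partek expectation-maximization quantifier and deposited CPM values, scaled to 1000000 reads, with 0.0001 added, which was subtracted here. The submitters' processing notes name Bowtie2 2.2.5 and GRCm38.p6. Deposited gene ends lie 1 base past the annotated end and were corrected. Low values were whole multiples of 1 read in 97.9 to 98.1% of cases (within 0.1 read) in the 6 libraries, so a depth could be read from them. Precision at low levels is given by 3 reads, 0.0411 to 0.0460 CPM, for counting error only.

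log2(CPM + 1) of the 14951 genes was fitted in limma 3.58.1 (R 4.3.3) with 10 condition means over all 20 libraries and a trended variance prior. The spread is thus pooled over libraries that differ in mt-Rnr2 level as given above. A call needs p under 0.001 and a log2 difference of at least 1, and Benjamini-Hochberg adjusted p-values cover all tested genes. An exact permutation test of 2 against 2 libraries cannot go under 0.333 and was not used. Replicates of each line differed by more than counting noise and were kept as 2 samples. Named genes were the 12 largest differences in each direction, the 5 smallest p in each direction, Platr18, Sema4f, the axon list, tested genes within 1000000 bases of Platr18, and up to 6 called members of each list. Members and lists were chosen with earlier results of these data known. The fit was tested on simulated data. Pseudocount, scaling, filters, libraries, limits and a replicate block were varied. Sequences are from RefSeq, GRCm38.p6. A few genes that meet the rule for named genes are not reported here.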

Additional observations from a re-analysis of the deposited data

Results flagged for a closer look

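For 20 entries the clones lay on opposite sides of Empty vector, each called, and the difference between the clones was itself called by limma. On the log2(CPM + 1) scale, as clone 16 minus clone 12, the 12 lower in clone 16 were Xist (-7.65), Tex101 (-6.97), Rhox5 (-5.03 for the entry on the patch sequence and -5.02 for that on X, near-identical copies), Emp2 (-4.18), Sirt1 (-3.60), Ncs1 (-3.11), Smarca1 (-2.85), Trip6 (-2.73), Zcwpw1 (-2.57), Thbs1 (-2.34) and Mme (-2.31). The 8 higher in clone 16 were Mtus1 (2.48), Map2 (3.05), Lmcd1 (3.17), Crtap (3.27), Vldlr (3.57), Morc4 (3.83), RP23-407H16.1 (3.89) and Lamb3 (4.04). They are 2.67% of the 749 genes called between the clones. With 2 libraries a line, no library could be tested as an outlier.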

How the results depend on the processing

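The number of calls followed the limits and the pseudocount. With a pseudocount of 0.1, 1138 genes were called between the clones, 734 of them higher in clone 16, and 889 in clone 12 and 433 in clone 16 against Empty vector. With a mean of at least 5 CPM these were 448 genes, 290 higher and 158 lower, with 337 and 143 against Empty vector. With a log2 limit of 2 they were 123 genes, 85 higher and 38 lower, with 85 and 40 against Empty vector, and Platr18 at -1.92 no longer passed. Leaving out each library of the 3 lines in turn gave 737 to 769 calls, 449 to 486 higher and 280 to 301 lower, 551 to 591 in clone 12 and 265 to 276 in clone 16 against Empty vector. Platr18 then ran from -1.93 to -1.91 and Sema4f from 1.96 to 2.15. Efnb1, not called, changed sign, at 0.072 without clone 12 replicate 2 and 0.076 without clone 16 replicate 1, and -0.12 was its lowest. Without a filter on low values 750 genes were called between the clones, and 624 in clone 12 and 305 in clone 16 against Empty vector. Equal sums over nuclear protein-coding genes gave 729 calls. Median-of-ratios scaling gave 726, of which 55.1% were higher in clone 16 in place of 61.7%. Fits without the 2 E1KD libraries, or on the 4 clone libraries alone, gave 749, and neither can change a difference between the clones. These fits, the crossed block and the fits without each E1KD library were chosen after seeing the data. Of 3456 comparisons of 187 single genes, 3302 kept direction and call and 151 fell under a limit.

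Same-numbered replicates of the clones deviated together at r = 0.31, but with 2 pairs and no shared culture named they were not treated as paired. With the replicate block 749 genes were called and no call between the clones changed, and with the numbers of clone 16 crossed also 749. Each line has both replicate numbers, so the block cannot change a difference between lines. Since the fold limit set the calls, these counts do not bear on pairing.

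Each line rests on 2 libraries, and 1 line stands at each Platr18 level. Differences under 3 reads a library, 0.0411 to 0.0460 CPM, were not detectable, and log2(CPM + 1) differences of genes under a few CPM are understated.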
